A study of Homo sapiens with 16 samples.

Results

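The p53 target genes are genes that the tumour suppressor p53 switches on when a cell is stressed. A list of 34 such genes was followed here in 2 human myeloma cell lines, and its members were found by gene symbol. The rule used no measured value, but the list was proposed with earlier results of these data known. All 34 were found among the 23354 genes of the count table, 32 under the listed symbol and 2 under a newer one (TIGAR for C12orf5 and SUSD6 for KIAA0247). Of these, 33 had enough reads to be tested. The member left out was GDF15, a secreted stress cytokine, which had at most 3 counts in any library. MM1S is a line sensitive to dexamethasone (Dex), a glucocorticoid that kills plasma cells, and MM1R is its Dex-resistant counterpart. Both lines were cultured for 48 h with vehicle (Veh), 0.1 µM TAK-981, 1 µM Dex or both drugs (combo), and RNA-seq was done in 2 libraries per group, 16 in all. TAK-981 inhibits the SUMO-activating enzyme, the first enzyme of the pathway that attaches SUMO, a small ubiquitin-like protein, to other proteins. Each is 1 established line, so a difference between them is one between these 2 lines only.

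In unstressed cells p53 is kept scarce by MDM2, a ubiquitin ligase that marks it for destruction, and by the related protein MDM4. Since p53 activates MDM2, the inhibitor forms part of a feedback loop. The other targets carry out what p53 is known for, which includes arrest of the cell cycle, cell death, DNA repair and changes in metabolism. In myeloma, loss of p53 function is a known mark of aggressive disease.

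Depth was 15707587 to 20644510 counts per library in MM1S and 18987739 to 24796539 in MM1R. All 10 plasma cell markers on a list were present, with a summed level of 5040 to 11400 CPM (counts divided by library size) per library. For 10 markers of other cell types it was 2.73 to 18.8 CPM. Of these, PPBP and NKG7 were at 0 in every library. HBB, CD3E and COL1A1 had enough reads to be tested, with at most 285, 122 and 40 counts in any library. Levels are given as CPM after TMM scaling, in the order of replicates 1 and 2. Every test is edgeR's quasi-likelihood test over the 14215 genes with enough counts, with Benjamini-Hochberg adjustment, and a gene was called changed at an adjusted p under 0.05. The sources do not say whether the 2 libraries of a group came from separate cultures, so p-values measure the spread between these libraries only. In bulk RNA, fewer cells with a transcript and less transcript per cell cannot be told apart. For 9 of the tested members the annotated span overlapped another gene (among them FAS with ACTA2, MDM4 with LRRN2, TNFRSF10B with RHOBTB2, TP53I3 with FAM228B and POLH with GTPBP2), and whether reads were counted by strand is not given in the sources used here.

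p53 binds a response element made of a pair of similar decamers, each with the core letters C and G at fixed places. The windows from 250 bases before to 50 bases after each RefSeq start site (GRCh38.p14) were searched for this element, allowing the decamers to lie 0 or 1 base apart and at most 2 mismatches outside the cores. The element reads nearly the same on both strands. Promoters were found for 27 of the 34 members. TP53INP1, GADD45A, TNFRSF10A, TNFRSF10B, TNFRSF10D, PHLDA3 and RRM2B had none in the table. Of the 27, 4 members (14.8%) held the element, against 0.674% of the 27305 genes in the table. The 4 elements are shown because p53 is known to act through such letters. The element is in capitals, and all 4 are read on the forward strand.
MDM2 (chr12:68808918-68808947, 2 mismatches): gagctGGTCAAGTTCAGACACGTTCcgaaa
FAS (chr10:88991304-88991333, 2 mismatches): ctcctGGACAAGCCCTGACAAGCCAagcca
AEN (chr15:88621301-88621330, 2 mismatches): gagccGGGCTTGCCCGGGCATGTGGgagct
DDB2 (chr11:47214975-47215003, 0 mismatches, 1 base between the decamers): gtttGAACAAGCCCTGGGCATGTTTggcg
In MDM2 the element lay in the promoters of the later start sites, at −94 or −101 bases from the start, and not in those of the earlier ones. In FAS and DDB2, too, it lay only in the promoter of the latest start site. A single decamer with no mismatch was present in at least 1 promoter of 7 of the 27 members. Counted by promoter and not by gene, it was present in 6.63% of the 35116 promoters in the table. The 27 members have 41 promoters, so these 2 figures differ in unit and cannot be compared directly. In PLK2, EI24, SESN1 and FDXR it was the only match, again shown in capitals, read on the reverse strand in PLK2, SESN1 and FDXR.
PLK2 (chr5:58460199-58460228): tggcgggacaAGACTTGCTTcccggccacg
EI24 (chr11:125569457-125569486): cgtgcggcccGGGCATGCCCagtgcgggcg
SESN1 (chr6:109009018-109009047): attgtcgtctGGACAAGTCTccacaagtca
FDXR (chr17:74872986-74873015): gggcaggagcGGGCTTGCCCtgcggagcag
The glucocorticoid response element, searched as GNACANNNTGTNC on both strands, was found in 0 member promoters and in 0.39% of all promoters. A match is a description of the letters, and its absence speaks only of these letters in this window.

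Per length, BTG2 and MDM2 were the most abundant members in vehicle-treated cells of both lines. BTG2 was at 361 CPM per kb of transcript in MM1S and 342 in MM1R, and MDM2 at 146 and 282 CPM per kb. At least 98.2% of the tested genes were at or below these levels in each line. MDM2 alone took 0.113% and 0.116% of all counts in the MM1S Veh libraries and 0.214% and 0.209% in the MM1R Veh libraries. The scarcest tested members were SPATA18 and ACER2, at 0.139 and 0.23 CPM per kb in MM1S, with at most 41 and 42 counts in any library.

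With TAK-981, ZMAT3 and PLK2 rose most among the p53 target genes in both lines. In MM1S, 15 members rose and 5 fell (60.6% of 33, where 49% of all tested genes were called). In MM1R, 13 rose and 5 fell (54.5%, where 53.4% of all genes were called). The share called was thus near that of all genes in MM1R. Over all genes, 25.2% rose and 23.7% fell in MM1S, and 25.8% rose and 27.6% fell in MM1R, so more members rose than fell where all genes were nearly balanced. Their median log2 change was 0.197 in MM1S and 0.145 in MM1R, against 0.0371 and 0.00429 over all genes. In both lines the same 11 members rose (BTG2, MDM2, MDM4, PLK2, TIGAR, TNFRSF10B, TNFRSF10D, TP53I3, TP53INP1, XPC and ZMAT3) and the same 3 fell (CCNG1, EI24 and FAS), and 0 were called in opposite directions. How many of all genes were called alike in both lines was not counted, so this agreement cannot be taken as particular to the members. A difference between the lines in this response was called for only 4.16% of all genes. With 2 libraries against 2, groups that do not overlap are common: this held for 28 members in MM1S and 29 in MM1R, and for 70.3% and 81.2% of all genes. For Dex in MM1S it held for 27 members and 68.8% of all genes, for combo against vehicle for 30 and 81.8% in MM1S and 27 and 80.9% in MM1R, and between the vehicle-treated lines for 31 and 79.2%. Genes picked below by rank for TAK-981 or for Dex in MM1S had to have groups that did not overlap. For them it is no added support.

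**Figure D1:**
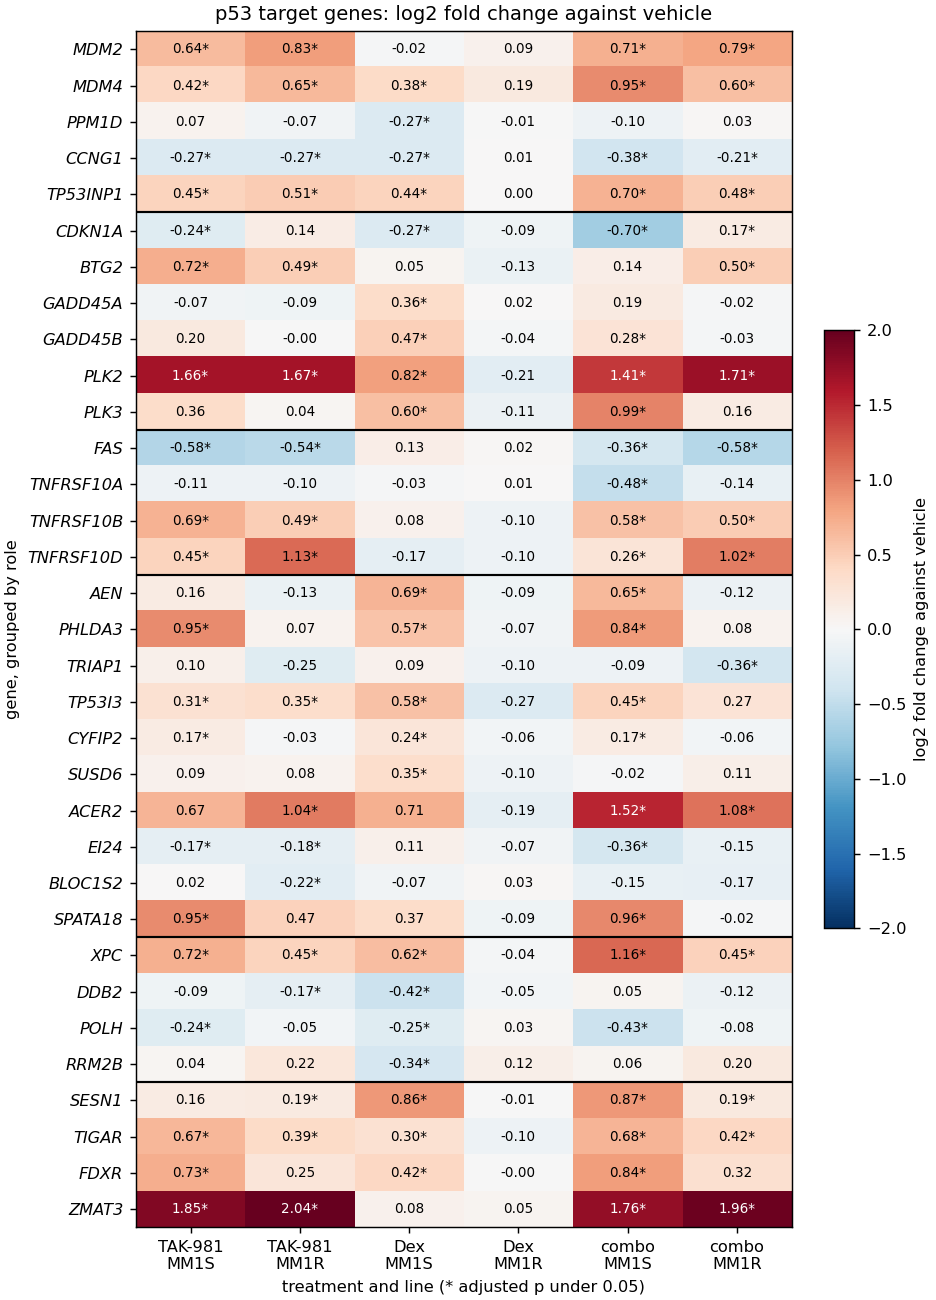
Log2 fold change against vehicle of the 33 tested p53 target genes (rows, grouped by role) for each treatment and line (columns), with an asterisk where the adjusted p was under 0.05. ZMAT3 was the darkest in all 4 columns that hold TAK-981, with PLK2 next in 3 of them and ACER2 next in the MM1S combo, and the Dex column of MM1R holds no asterisk.

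Of the 5 inhibitors and cofactors of p53, MDM2, MDM4 and TP53INP1 rose with TAK-981 in both lines. MDM2 (chromosome 12, 69201971 to 69239320, hg19) was at 1094 and 1125 CPM in MM1S Veh and 1785 and 1669 CPM with TAK-981 (log2 fold change 0.64, SE 0.061, adjusted p 8.1e-08). In MM1R it was at 2164 and 2132 CPM in Veh and 3939 and 3702 CPM with TAK-981 (log2 fold change 0.83, SE 0.061, adjusted p 3.22e-09). The treated libraries were above the vehicle libraries in each line, and the MM1R libraries that received TAK-981, alone or in the combo, were the highest of all. MDM4, the partner that blocks p53 without degrading it, rose by 0.42 (SE 0.081, adjusted p 0.00035) in MM1S and by 0.65 (SE 0.082, adjusted p 3.18e-06) in MM1R on the log2 scale. TP53INP1, a stress-induced protein that promotes p53 activity, rose by 0.45 (SE 0.064, adjusted p 1.12e-05) and 0.51 (SE 0.064, adjusted p 2.64e-06). The member that fell was CCNG1, cyclin G1, which was at 159 and 144 CPM in MM1S Veh and 129.6 and 121 CPM with TAK-981 (log2 fold change −0.27, SE 0.065, adjusted p 0.00185). It was at 113 and 111 CPM and 94.97 and 90.4 CPM in MM1R (log2 fold change −0.27, SE 0.065, adjusted p 0.00175). Its treated and vehicle libraries did not overlap in either line. PPM1D, a phosphatase that switches off the damage response, had log2 fold changes of 0.07 (SE 0.068, adjusted p 0.42) and −0.07 (SE 0.067, adjusted p 0.392).

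Among the 6 genes of cell cycle arrest and stress signalling, PLK2 and BTG2 rose in both lines. PLK2, a polo-like kinase (chromosome 5), was at 36.1 and 33.9 CPM in MM1S Veh and 118 and 104 CPM with TAK-981 (log2 fold change 1.66, SE 0.088, adjusted p 2.83e-11). In MM1R the levels were 37.4 and 30.8 CPM and 109 and 108 CPM (log2 fold change 1.67, SE 0.087, adjusted p 3.42e-11). This was a rise of 3.17-fold and 3.18-fold, far beyond the gap between replicates. BTG2, an antiproliferative factor that promotes mRNA decay, was at 944 and 1010 CPM in MM1S Veh and 1528 and 1688 CPM with TAK-981 (log2 fold change 0.72, SE 0.059, adjusted p 9.7e-09). In MM1R it was at 933 and 919 CPM and 1281 and 1318 CPM (log2 fold change 0.49, SE 0.059, adjusted p 1.53e-06). No BTG2 value of the treated libraries reached into the vehicle range of its line. CDKN1A, which encodes the cell cycle inhibitor p21 and is the best-known p53 target, was not called higher in either line. It fell in MM1S, from 63.3 and 60.5 CPM to 49.6 and 55.02 CPM (log2 fold change −0.24, SE 0.070, adjusted p 0.00771). In MM1R it was at 238 and 239 CPM in Veh and 264 and 263 CPM with TAK-981 (log2 fold change 0.14, SE 0.064, adjusted p 0.066, and adjusted p 0.0167 with the replicate number as a block, where it passed the threshold). GADD45A, GADD45B and PLK3, all damage-inducible, were not called in either line, with log2 fold changes of −0.07, 0.20 and 0.36 in MM1S and −0.09, −0.0013 and 0.04 in MM1R. With the block, GADD45B (adjusted p 0.00862) and PLK3 (adjusted p 0.0342) passed the threshold in MM1S.

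Of the 4 death receptors, TNFRSF10B and TNFRSF10D rose and FAS fell in both lines. TNFRSF10B, the TRAIL receptor DR5, rose by 0.69 (SE 0.067, adjusted p 8.47e-08) in MM1S and 0.49 (SE 0.065, adjusted p 5.41e-06) in MM1R. TNFRSF10D, a decoy receptor that binds TRAIL without passing on the death signal, was at 24.2 and 24.3 CPM in MM1S Veh and 32.4 and 33.8 CPM with TAK-981 (log2 fold change 0.45, SE 0.097, adjusted p 0.00088). In MM1R it was at 6.90 and 7.38 CPM and 14.4 and 16.8 CPM (log2 fold change 1.13, SE 0.12, adjusted p 3.06e-07). Its groups did not overlap in either line, and its level stayed lower in MM1R than in MM1S under both treatments. FAS, the receptor of Fas ligand, was at 18.3 and 17.99 CPM in MM1S Veh and 12.7 and 11.6 CPM with TAK-981 (log2 fold change −0.58, SE 0.10, adjusted p 0.00014). In MM1R it went from 25.2 and 22.4 CPM to 16.7 and 16.1 CPM (log2 fold change −0.54, SE 0.096, adjusted p 0.000133). Every treated library was below every vehicle library of its line. FAS is among the 4 members with a p53 element in a promoter, here only that of its latest start site. TNFRSF10A, the TRAIL receptor DR4, had log2 fold changes of −0.11 (SE 0.075, adjusted p 0.255) and −0.10 (SE 0.073, adjusted p 0.258).

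Of the 10 other genes of cell death and survival, 4 rose and 1 fell in MM1S, and 2 rose and 2 fell in MM1R. PHLDA3, which restrains the survival kinase AKT, was at 7.89 and 7.89 CPM in MM1S Veh and 14.005 and 16.5 CPM with TAK-981 (log2 fold change 0.95, SE 0.14, adjusted p 2.15e-05). In MM1R it was at 21.3 and 24.3 CPM and 22.7 and 25.3 CPM (log2 fold change 0.07, SE 0.12, adjusted p 0.628). The groups were apart in MM1S and overlapped in MM1R, where the vehicle level was already higher. The differences between lines in vehicle and in the TAK-981 response share the vehicle libraries, so they are not independent. TP53I3, an oxidoreductase, rose by 0.31 and 0.35 on the log2 scale (adjusted p 0.0444 and 0.0274). EI24, an endoplasmic reticulum protein, fell from 99.2 and 93.5 CPM to 85.4 and 85.3 CPM in MM1S (log2 fold change −0.17, SE 0.066, adjusted p 0.0346) and from 139 and 136 CPM to 117 and 126 CPM in MM1R (log2 fold change −0.18, SE 0.064, adjusted p 0.0235). These are small shifts, and groups that did not overlap were a condition for picking EI24 here. CYFIP2, a regulator of the actin cytoskeleton (0.17), and the sparsely counted SPATA18, which acts in mitochondrial quality control (0.95), rose in MM1S. In MM1R their values were −0.03 (SE 0.058, adjusted p 0.697) and 0.47 (SE 0.26, adjusted p 0.14). ACER2, an alkaline ceramidase, rose in MM1R (1.04), with a log2 fold change of 0.67 (SE 0.31, adjusted p 0.0841) in MM1S. BLOC1S2, a subunit of a lysosome-related complex, was at 36.5 and 36.3 CPM in MM1R Veh and 31.2 and 31.5 CPM with TAK-981 (log2 fold change −0.22, SE 0.073, adjusted p 0.0177). AEN, TRIAP1 and SUSD6 were not called in either line, with log2 fold changes between −0.25 and 0.16. With the block, AEN passed in MM1S (adjusted p 0.028) and, in the other direction, in MM1R (adjusted p 0.0472), and TRIAP1 passed in MM1R (adjusted p 0.0414).

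In DNA repair, XPC, which recognises bulky lesions, was the member that rose in both lines. It was at 69.7 and 69.7 CPM in MM1S Veh and 109.8 and 119 CPM with TAK-981 (log2 fold change 0.72, SE 0.065, adjusted p 4.08e-08), and rose by 0.45 (SE 0.064, adjusted p 1.23e-05) in MM1R. The 2 treated MM1S libraries were well above both vehicle libraries. POLH, a polymerase that copies past damaged bases, fell in MM1S from 113 and 113 CPM to 93.4 and 98.1 CPM (log2 fold change −0.24, SE 0.060, adjusted p 0.00332). DDB2, which senses ultraviolet damage and carries an element with no mismatch, was at 55.98 and 55.8 CPM in MM1R Veh and 49.5 and 49.5 CPM with TAK-981 (log2 fold change −0.17, SE 0.063, adjusted p 0.0269). RRM2B, a subunit of ribonucleotide reductase, had log2 fold changes of 0.04 (SE 0.11, adjusted p 0.823) and 0.22 (SE 0.12, adjusted p 0.141), the latter with an adjusted p of 0.0473 under the block.

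ZMAT3, an RNA-binding protein that regulates splicing, showed the largest rise of all members in both lines. It was at 16.3 and 17.2 CPM in MM1S Veh and 69.4 and 50.9 CPM with TAK-981 (log2 fold change 1.85, SE 0.13, adjusted p 2.77e-09). In MM1R it was at 20.1 and 18.3 CPM and 77.6 and 79.7 CPM (log2 fold change 2.04, SE 0.12, adjusted p 6.78e-10). Treated levels were 3.59-fold and 4.1-fold above vehicle. TIGAR, which lowers glycolysis, rose by 0.67 and 0.39 on the log2 scale. FDXR, ferredoxin reductase, rose in MM1S (0.73) and had a value of 0.25 (SE 0.14, adjusted p 0.146) in MM1R. SESN1, a sestrin that limits mTORC1, rose in MM1R (0.19) and had a value of 0.16 (SE 0.066, adjusted p 0.0547) in MM1S, where it passed with the block (adjusted p 0.00812).

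Leaving out 1 library ended the TAK-981 calls of 5 members in MM1S and of 6 in MM1R. In MM1S these were CDKN1A, CYFIP2, EI24, SPATA18 and TP53I3 (adjusted p up to 0.268, without MM1S Veh replicate 1). The calls lost in MM1R were those of ACER2, BLOC1S2, DDB2, EI24, SESN1 and TP53I3 (adjusted p up to 0.25, without MM1R TAK-981 replicate 2). Each of the 4 libraries of a comparison ended at least 2 calls when left out. The number of calls was then 15 to 20 in MM1S and 12 to 14 in MM1R. The other 15 and 12 calls passed without any 1 library and under each alternative fit that kept the threshold on the adjusted p alone (a minimum log2 change of 1 left 2 and 4), and they include ZMAT3, PLK2, MDM2, BTG2, XPC, FAS and CCNG1 in both lines.

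**Figure D2:**
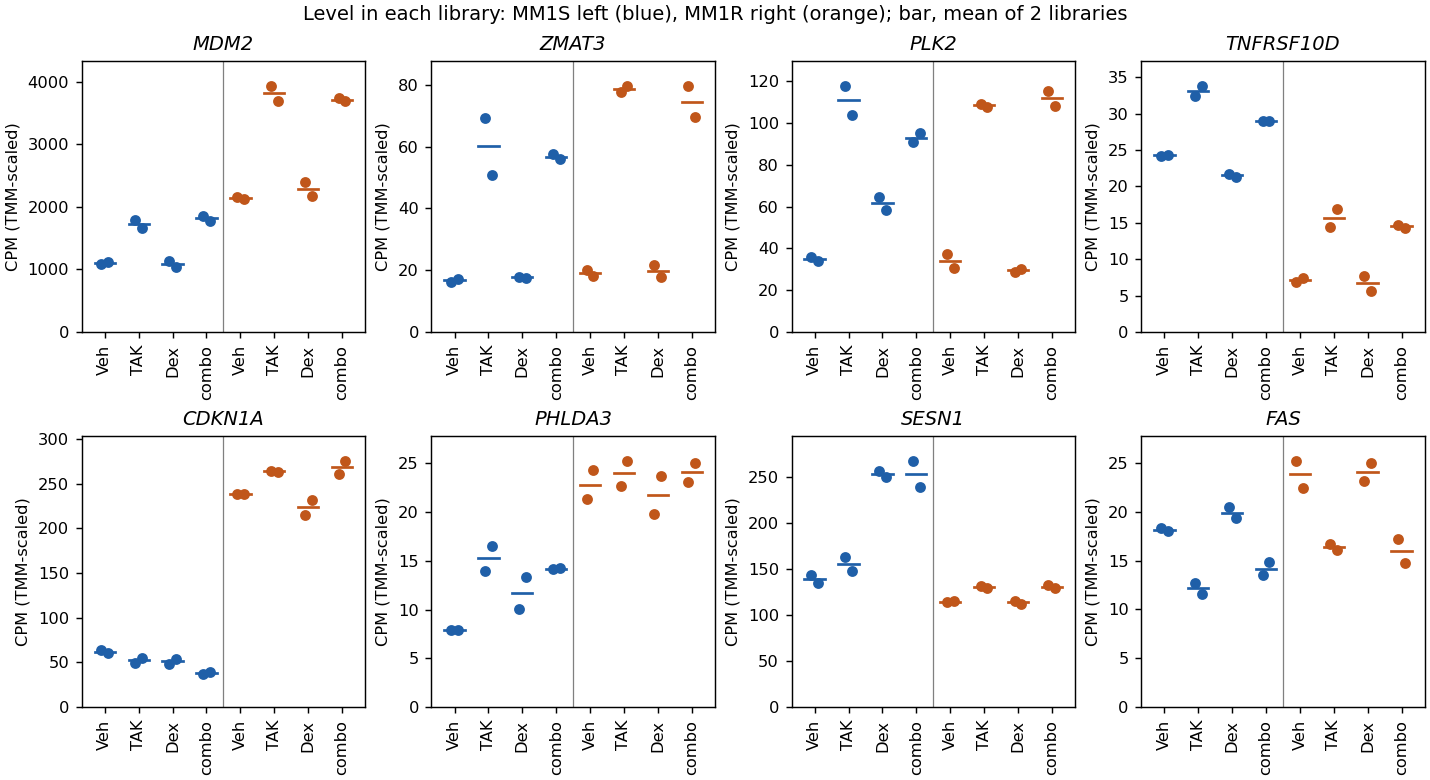
Level of 8 p53 target genes in each of the 16 libraries, in TMM-scaled CPM, with MM1S in blue and MM1R in orange; bars are the mean of 2 libraries and each y axis starts at 0. MDM2, ZMAT3 and PLK2 sat higher in the TAK-981 and combo groups of both lines, SESN1 in the Dex and combo groups of MM1S, and CDKN1A was higher in every MM1R library than in any MM1S library.

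The response to TAK-981 differed between the lines for 3 of the 33 members (9.09%, where 4.16% of all genes were called for this difference, 3.19% with a higher and 0.978% with a lower value in MM1R). CDKN1A had values of opposite sign, with a log2 difference (MM1R response minus MM1S response) of 0.39 (SE 0.095, adjusted p 0.0265). TNFRSF10D rose more in MM1R, by 0.68 (SE 0.15, adjusted p 0.0165). For PHLDA3 the MM1R value was the lower, with a difference of −0.88 (SE 0.18, adjusted p 0.0104). None of these 3 calls held in every fit without 1 library, and 6 of the 8 libraries, all but those of MM1S with TAK-981, ended at least 2 of the calls of CDKN1A, PHLDA3 and TNFRSF10D (adjusted p up to 0.129, without MM1S Veh replicate 1) when left out. The count ran from 0 (without MM1S Veh replicate 1, MM1S Veh replicate 2 or MM1R Veh replicate 2) to 9 (without MM1S TAK-981 replicate 1), with 1 without MM1R Veh replicate 1 or either MM1R TAK-981 library. With the replicate number as a block, 7 members were called, of which 2 responded more and 5 less in MM1R, where 14.5% of all genes were called. The 4 members added by the block were BTG2 (adjusted p 0.0171), AEN (adjusted p 0.0189), XPC (adjusted p 0.0193) and FDXR (adjusted p 0.0472). The 95% intervals given here use 8 residual degrees of freedom, fewer than the test, so they are wider than the test would give. For MDM2 the difference was 0.19 (SE 0.086, adjusted p 0.206), with a 95% interval of −0.01 to 0.39. ZMAT3 had a difference of 0.19 (SE 0.18, adjusted p 0.56) and an interval of −0.22 to 0.60, and PLK2 one of 0.01 (SE 0.12, adjusted p 0.987) and −0.28 to 0.29.

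**Figure D3:**
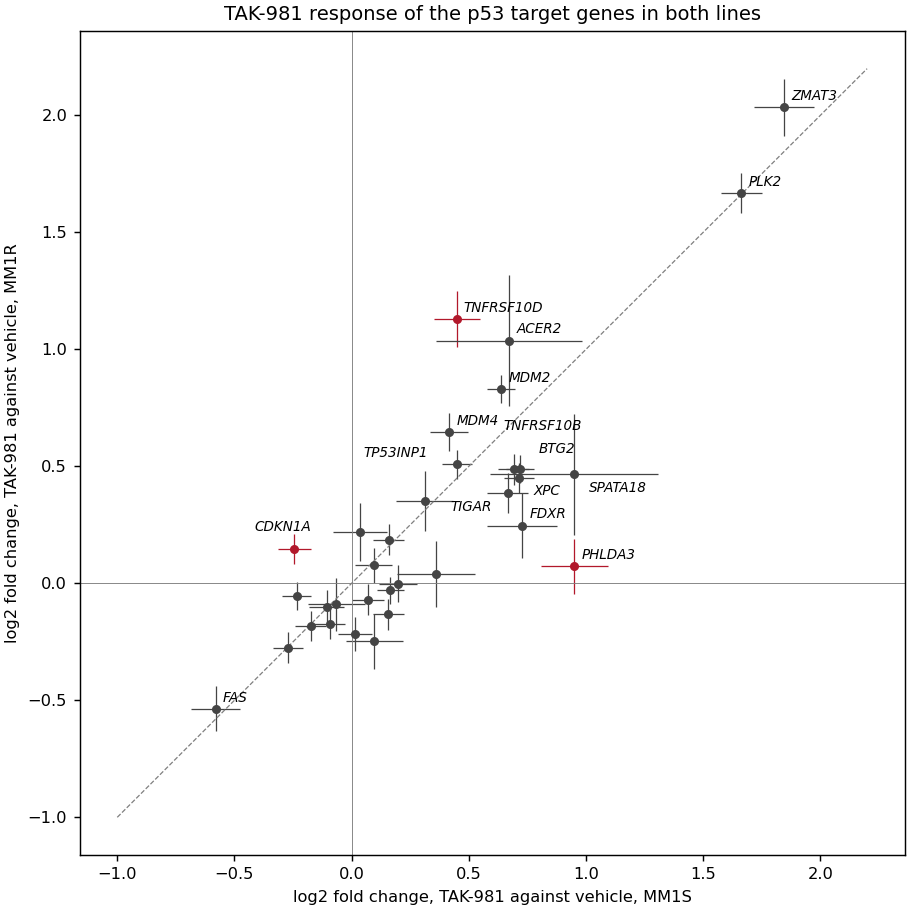
Log2 fold change with TAK-981 in MM1S (x axis) and MM1R (y axis) for the 33 tested members, with bars of 1 standard error, a dashed line of equal response, and red where the difference between lines had an adjusted p under 0.05. ZMAT3 and PLK2 lie far out near the dashed line, and the 3 red genes are CDKN1A, TNFRSF10D and PHLDA3.

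Before any drug, the lines already differed in most p53 target genes. In vehicle-treated MM1R, 19 members were higher and 6 lower than in MM1S (75.8% of 33, where 48.2% of all genes were called, 25.6% higher and 22.6% lower). The median log2 difference was 0.23, against 0.00675 over all genes. CDKN1A differed most, at 63.3 and 60.5 CPM in MM1S and 238 and 239 CPM in MM1R (log2 fold change 1.94, SE 0.068, adjusted p 1.6e-13), a 3.85-fold difference. PHLDA3 was at 7.89 and 7.89 CPM and 21.3 and 24.3 CPM (log2 fold change 1.53, SE 0.13, adjusted p 4.81e-08). MDM2 was at 1094 and 1125 CPM and 2164 and 2132 CPM (log2 fold change 0.95, SE 0.061, adjusted p 9.46e-10). The lines did not overlap for any of these 3 genes, and MM1R was the higher. TNFRSF10D went the other way, at 24.2 and 24.3 CPM in MM1S and 6.90 and 7.38 CPM in MM1R (log2 fold change −1.76, SE 0.11, adjusted p 8.66e-10). The decoy receptor was thus 3.39-fold lower in MM1R, while TNFRSF10B (0.47), FAS (0.39) and TNFRSF10A (0.18) were higher. MDM4 (−0.56), RRM2B (−0.70), CCNG1 (−0.43), TP53I3 (−0.34) and SESN1 (−0.28) were also lower in MM1R. ZMAT3 and PLK2, the members with the largest TAK-981 response, had vehicle differences of 0.20 (SE 0.14, adjusted p 0.242) and −0.04 (SE 0.091, adjusted p 0.762). XPC (log2 fold change 0.16, SE 0.065, adjusted p 0.0562) passed with the block (adjusted p 0.0182). Leaving out 1 of the 4 libraries ended 3 to 6 calls, among those of FDXR, GADD45A, GADD45B, PPM1D, TNFRSF10A, TP53I3 and TRIAP1 (adjusted p up to 0.339, without MM1S Veh replicate 1). The other 18 calls held without any 1 library and under each alternative fit with no minimum change, and a minimum log2 change of 1 left 4.

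**Figure D4:**
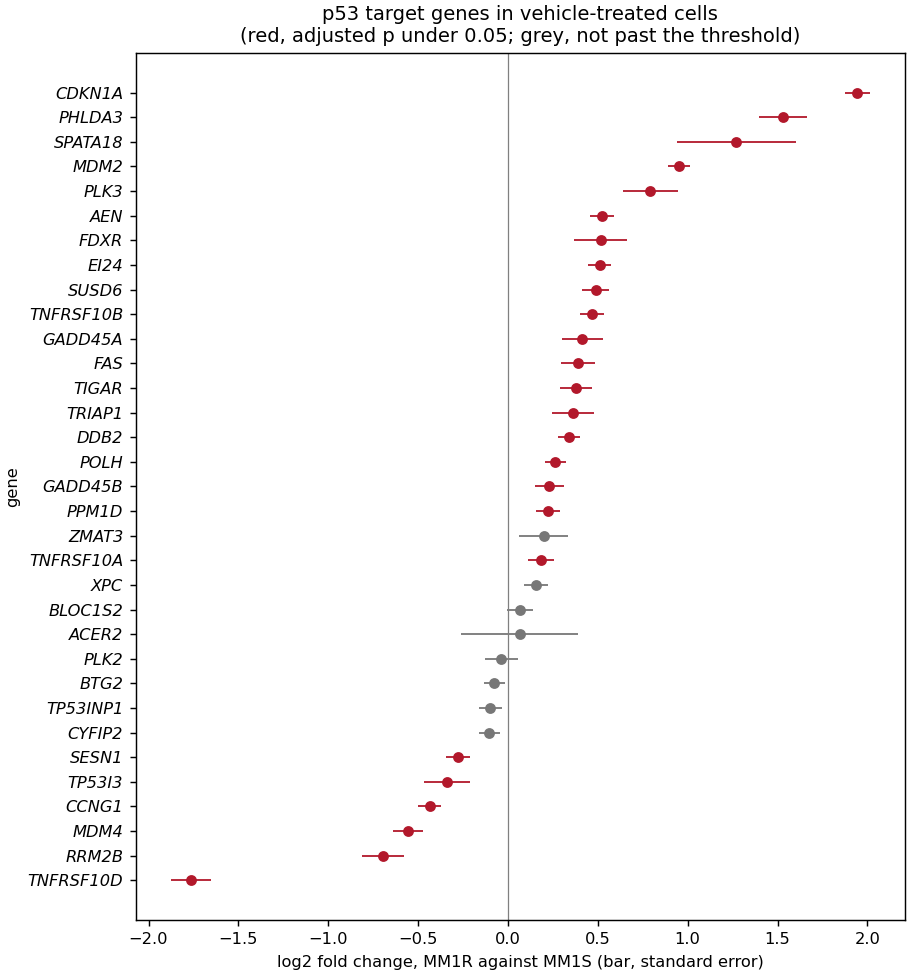
Log2 fold change of each tested member in vehicle-treated MM1R against MM1S, in order of size, with bars of 1 standard error and red where the adjusted p was under 0.05. CDKN1A, PHLDA3, SPATA18 and MDM2 stand highest, and TNFRSF10D lies far below the rest.

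Dex changed p53 target genes in MM1S and left no call in MM1R. In MM1S, 15 members rose and 6 fell (63.6%, where 42.3% of all genes were called, 20.8% up and 21.5% down), and the median log2 fold change was 0.24 against 0.011 over all genes. The largest rise, that of SESN1, was 1.82-fold. SESN1 was at 144 and 134 CPM in MM1S Veh and 257 and 249.6 CPM with Dex (log2 fold change 0.86, SE 0.066, adjusted p 4.99e-09). PLK2 was at 36.1 and 33.9 CPM and 64.8 and 58.5 CPM (log2 fold change 0.82, SE 0.089, adjusted p 6.27e-07). AEN, a nuclease that promotes apoptosis, was at 77.2 and 71.7 CPM and 117 and 123 CPM (log2 fold change 0.69, SE 0.067, adjusted p 1.44e-07). For all 3 the Dex libraries lay above both vehicle libraries. XPC was at 69.7 and 69.7 CPM and 105 and 109 CPM (log2 fold change 0.62, SE 0.065, adjusted p 3.86e-07). TP53INP1 was at 359.9 and 389 CPM and 513 and 506 CPM (log2 fold change 0.44, SE 0.064, adjusted p 1.72e-05). These groups, too, were apart. The other members that rose were PLK3 (0.60), TP53I3 (0.58), PHLDA3 (0.57), GADD45B (0.47), FDXR (0.42), MDM4 (0.38), GADD45A (0.36), SUSD6 (0.35), TIGAR (0.30) and CYFIP2 (0.24). None of the 4 death receptors was called, with log2 fold changes from −0.17 to 0.13. MDM2 (−0.02, SE 0.061, adjusted p 0.808), BTG2 (0.05, SE 0.058, adjusted p 0.508) and ZMAT3 (0.08, SE 0.14, adjusted p 0.677), which rose with TAK-981, were not called with Dex.

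The members that fell with Dex in MM1S included 3 of the 4 repair genes. DDB2 was at 43.8 and 44.5 CPM in Veh and 33.1 and 32.7 CPM with Dex (log2 fold change −0.42, SE 0.067, adjusted p 4.71e-05). POLH was at 113 and 113 CPM and 93.4 and 96.2 CPM (log2 fold change −0.25, SE 0.060, adjusted p 0.00263), and RRM2B was also lower (−0.34). For DDB2 and POLH every Dex library was below every vehicle library. PPM1D was at 44.3 and 45.7 CPM and 35.8 and 38.8 CPM (log2 fold change −0.27, SE 0.069, adjusted p 0.00416). CCNG1 was at 159 and 144 CPM and 126 and 126 CPM (log2 fold change −0.27, SE 0.065, adjusted p 0.00233). CDKN1A was at 63.3 and 60.5 CPM and 48.7 and 53.8 CPM (log2 fold change −0.27, SE 0.070, adjusted p 0.00417). The groups did not overlap for these 3 genes. Leaving out 1 of the 4 libraries ended 2 to 5 calls, among those of CCNG1, CDKN1A, FDXR, GADD45A, PHLDA3, PLK3, RRM2B and TIGAR (adjusted p up to 0.504, without MM1S Dex replicate 2). The other 13 calls held without any 1 library and under each alternative fit with no minimum change, and a minimum log2 change of 1 left 0.

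In MM1R, 0 of the 33 members and 0 of all genes (0%) were called with Dex by edgeR, and DESeq2 also called 0 members. At an unadjusted p under 0.05 there were 3 members and 395 of all genes. Members had a median log2 change of −0.0533, against −0.0119 over all genes. SESN1, for example, was at 114 and 115 CPM in MM1R Veh and 115 and 112 CPM with Dex (log2 fold change −0.01, SE 0.066, adjusted p 1). The glucocorticoid receptor gene NR3C1 was at 283 and 277 CPM in MM1S Veh and 19.9 and 17.9 CPM in MM1R Veh. The difference between the lines in the Dex response was itself called for 16 members (48.5%, where 28.1% of all genes were called, 15% higher and 13.1% lower in MM1R), 4 with a higher and 12 with a lower value in MM1R. The largest differences were those of PLK2 (−1.02, SE 0.13, adjusted p 7.02e-06), SESN1 (−0.88, SE 0.093, adjusted p 1.02e-06) and TP53I3 (−0.85, SE 0.18, adjusted p 0.00151). Leaving out 1 of the 8 libraries ended 1 to 6 calls, among those of CCNG1, PHLDA3, PLK3, POLH, RRM2B and TIGAR (adjusted p up to 0.187, without MM1R Dex replicate 1). Without MM1R Veh replicate 2, 10 of the 16 calls were left. The block gave 20 calls (36.7% of all genes), adding GADD45A (adjusted p 0.00989), PPM1D (0.023), BTG2 (0.0318) and FDXR (0.0467).

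With both drugs, more members were called in MM1S than in MM1R in the main fit, though this difference between lines was not tested. In MM1S, 19 rose and 6 fell against vehicle (75.8%, where 60.3% of all genes were called, 30.8% up and 29.5% down), and in MM1R 13 rose and 3 fell (48.5%, where 51.5% were called, 24.8% up and 26.7% down). With the compared groups alone, 25 members were called in MM1S (67.8% of all genes) and 24 in MM1R (66.4%). XPC was at 147 and 163 CPM in the MM1S combo libraries, the highest group for this gene (log2 fold change 1.16, SE 0.065, adjusted p 1.96e-11 against vehicle). PLK3 (0.99), MDM4 (0.95), SESN1 (0.87) and TP53INP1 (0.70) also rose with the combo in MM1S. CDKN1A reached its lowest level there, at 37.5 and 38.9 CPM (log2 fold change −0.70, SE 0.073, adjusted p 1.3e-07). Both combo libraries were below all other libraries of the series. MDM2 was at 1862 and 1776 CPM in MM1S combo and 3744 and 3688 CPM in MM1R combo. In MM1S its log2 fold change of combo against TAK-981 was 0.07 (SE 0.061, adjusted p 0.366), with a 95% interval of −0.07 to 0.21.

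Adding Dex to TAK-981 in MM1S raised 7 members and lowered 6 (39.4%, where 35.1% of all genes were called, 14.5% up and 20.6% down). With library size alone as the scaling, 8 members were higher and 3 lower, and over all genes 2519 were higher and 2552 lower. Those that rose included SESN1 (0.71), MDM4 (0.53), AEN (0.49) and XPC (0.44), and BTG2 (−0.58), CDKN1A (−0.45) and TNFRSF10A (−0.37) were among those that fell. In MM1R, edgeR and DESeq2 called 0 members and 0% of all genes for the same step, and at an unadjusted p under 0.05 there were 0 members and 214 of all genes. Adding TAK-981 to Dex raised 15 and lowered 6 members in MM1S (63.6%, where 47.6% of all genes were called, 22.2% up and 25.4% down), and raised 15 and lowered 3 in MM1R (54.5%, where 48.4% were called, 23.1% up and 25.3% down). These comparisons share libraries with those against vehicle and with each other. Each of the 4 libraries of a comparison ended at least 2 calls when left out. For combo against vehicle these were among the calls of CYFIP2, FAS, GADD45B, SPATA18, TNFRSF10D and TP53I3 (adjusted p up to 0.268, without MM1S combo replicate 2) in MM1S and CCNG1, CDKN1A, SESN1 and TRIAP1 (adjusted p up to 0.214, without MM1R combo replicate 2) in MM1R. For combo against TAK-981 in MM1S they were those of ACER2, EI24, PLK2, PLK3 and POLH (adjusted p up to 0.169, without MM1S TAK-981 replicate 1). For combo against Dex they were those of ACER2, FDXR, PLK3, POLH, PPM1D and RRM2B (adjusted p up to 0.386, without MM1S combo replicate 2) in MM1S and BLOC1S2, CCNG1, SESN1, SUSD6 and TP53I3 (adjusted p up to 0.21, without MM1R combo replicate 2) in MM1R. With the replicate number as a block, combo against vehicle had 27 calls in MM1S (65.3% of all genes), adding BTG2 (adjusted p 0.0104) and GADD45A (0.0434). In MM1R it had 20 (57.9% of all genes), adding FDXR (adjusted p 0.012), EI24 (0.0248), BLOC1S2 (0.0318) and TP53I3 (0.0467). Combo against TAK-981 in MM1S had 15 (42.6% of all genes), adding GADD45A (adjusted p 0.0113) and PPM1D (0.0409). Combo against Dex had 23 in MM1S (54.2% of all genes), adding GADD45B (adjusted p 0.00655) and PHLDA3 (0.03). In MM1R it had 22 (55.5% of all genes), adding FDXR (adjusted p 0.0122), TRIAP1 (0.0352), PLK3 (0.0431) and TNFRSF10A (0.0458).

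For some members the combo in MM1S departed from the change that TAK-981 and Dex, added up on the log2 scale, would give. This interaction was called for 8 of the 33 members (24.2%, where 14.9% of all genes were called, 5.47% above and 9.48% below the sum), 7 below the sum and 1 above it. PLK2 was at 36.1 and 33.9 CPM in Veh, 118 and 104 with TAK-981, 64.8 and 58.5 with Dex and 90.7 and 95.01 with both. Each drug alone raised it, and the combo libraries lay below those with TAK-981 alone (departure from the sum −1.07, SE 0.12, adjusted p 1.17e-05). BTG2 was at 944 and 1010 CPM in Veh, 1528 and 1688 with TAK-981, 981 and 1044 with Dex and 1041 and 1106 with both. The rise seen with TAK-981 was thus mostly missing in the combo, with a departure of −0.63 (SE 0.083, adjusted p 5.58e-05). In MM1R, where Dex had no called effect, BTG2 kept its rise in the combo, at 933 and 919 CPM in Veh and 1312 and 1301 CPM in combo (log2 fold change 0.50, SE 0.059, adjusted p 1.3e-06). DDB2, the 1 member above the sum, was at 43.8 and 44.5 CPM in Veh, 40.6 and 42.3 with TAK-981, 33.1 and 32.7 with Dex and 45.03 and 46.3 with both. Both combo libraries were above those with Dex alone (departure 0.57, SE 0.094, adjusted p 0.000563). SUSD6 was at 45.7 and 49.1 CPM in Veh, 47.05 and 54.1 with TAK-981, 59.2 and 62.02 with Dex and 44.3 and 48.99 with both. It rose with Dex alone, and its combo libraries overlapped the vehicle libraries (departure −0.47, SE 0.11, adjusted p 0.00774). The other 4 were PHLDA3 (−0.68), GADD45B (−0.39), TNFRSF10A (−0.34) and EI24 (−0.29).

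Of the 8, PLK2, BTG2 and DDB2 kept this call without any 1 library and under each alternative fit with no minimum change, and a minimum log2 change of 1 left 1. With the replicate number as a block, 12 members were called, 2 above and 10 below the sum, where 25.2% of all genes were called. The 4 added were RRM2B, above the sum (adjusted p 0.0311), and CYFIP2 (0.0173), TP53I3 (0.0376) and TP53INP1 (0.0397), below it. Leaving out 1 library, other than TAK-981 replicate 1, ended 1 to 5 of the calls of EI24, GADD45B, PHLDA3, SUSD6 and TNFRSF10A (adjusted p up to 0.22, without MM1S Dex replicate 2). The count was 3 without MM1S Veh replicate 1 or combo replicate 1, 4 without Dex replicate 2, 5 without Veh replicate 2 or TAK-981 replicate 2, and 6 to 10 without any other library. Scaling moved the balance over all genes, which was 777 above and 1348 below the sum with TMM and 1033 above and 908 below with library size alone, where 5 members were called. In MM1R, edgeR and DESeq2 called 0 members (0% of all genes) for this interaction, and at an unadjusted p under 0.05 there were 0 members and 400 of all genes.

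**Figure D5:**
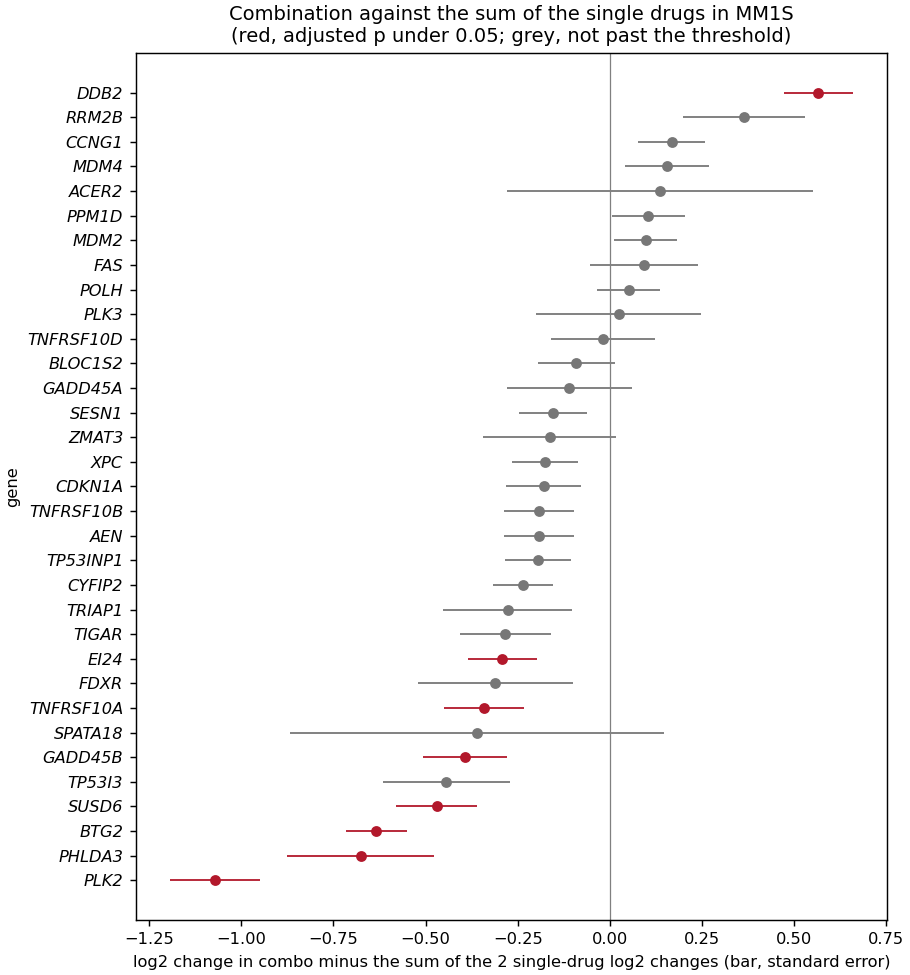
Log2 change with the combo in MM1S minus the sum of the log2 changes with TAK-981 and Dex alone, for the 33 tested members, with bars of 1 standard error and red where the adjusted p was under 0.05. DDB2 lies at the top and PLK2 at the bottom, and 23 of the 33 members lie below 0.

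Other p53 targets, from a second list of 75 genes with 69 tested, were also called in both directions. With TAK-981, 29 rose and 13 fell in MM1S (60.9%), and 24 rose and 13 fell in MM1R (53.6%). With Dex in MM1S, 16 rose and 13 fell (42%). The shares of all genes called, given above for the same comparisons, were 49%, 53.4% and 42.3%. TRIM22, an interferon-inducible antiviral protein, was at 0.752 and 1.08 CPM in MM1S Veh and 19.8 and 15.1 CPM with TAK-981 (log2 fold change 4.26, SE 0.22, adjusted p 2.2e-11), and at 0.165 and 0.371 CPM and 14.4 and 12.8 CPM in MM1R (log2 fold change 5.63, SE 0.27, adjusted p 1.36e-11). In the MM1R Veh libraries 1 count was 0.04135 and 0.04123 CPM, so the TRIM22 baseline and fold rest on few counts there. The annotated span of TRIM22 also overlaps TRIM5 and other genes. TLR3, a sensor of double-stranded RNA that interferon also induces, rose by 2.26 (SE 0.24, adjusted p 3.74e-07) in MM1R. IER5 (1.22) and FUCA1, a lysosomal fucosidase (0.63), rose in MM1S with TAK-981, and DUSP5, a phosphatase of ERK (0.45), in MM1R. HSPA4L, a heat shock protein, fell in both lines (−1.65 and −1.32), as did TGFA, a growth factor (−0.87 and −0.79). PERP fell in MM1S (−0.56) and STEAP3 in MM1R (−0.76). Genes named for 1 line were picked by their rank there, and their values in the other line are not given. A difference between the lines in the TAK-981 response was called for 1 of the 69 (1.45%, where 4.16% of all genes were called). With Dex in MM1S, FUCA1 (1.00), EDA2R, a receptor of the TNF family (0.82), and DUSP5 (0.53) rose, and HSPA4L (−1.67), ATF3 (−0.86) and BCL2L1, which blocks apoptosis (−0.62), fell.

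Of 33 regulators of p53, 32 were tested. With TAK-981, 7 rose and 9 fell in MM1S (50%, where 49% of all genes were called). In MM1R, 4 rose and 10 fell (43.8%, where 53.4% were called). With Dex, 8 rose and 4 fell in MM1S (37.5%, where 42.3% were called). The shares called were thus near or below those of all genes. CHEK1 and CHEK2, kinases that signal DNA damage to p53, fell with TAK-981 in MM1S (−1.58 and −1.03) and in MM1R (−0.88 and −0.61), and with Dex in MM1S (−1.12 and −0.65). TP73, a gene of the p53 family, fell in the same 3 comparisons (−1.59, −1.32 and −0.94). TP53BP2, a p53-binding protein that favours apoptosis, rose with TAK-981 in MM1S (0.44) and MM1R (0.63). DAXX (0.33) and TP53RK, a kinase of p53 (0.25), rose in MM1S. In MM1R the acetyltransferase EP300 (0.39) rose, as did ZNF385A (1.59), which had at most 27 counts in any library. These, too, were picked by their rank in 1 line. A difference between the lines in the TAK-981 response was called for 2 of the 32 regulators (6.25%, where 4.16% of all genes were called). The ZNF385A call was lost without MM1R Veh replicate 1 or MM1R TAK-981 replicate 2 (adjusted p up to 0.111). PPP1R13B (0.79) and the acetyltransferase CREBBP (0.36) rose with Dex in MM1S.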

How the data were processed

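RNA-seq of 16 libraries from the MM1S and MM1R lines was analysed, 2 libraries in each of 8 groups taken from the sample labels. The authors deposited 1 table of raw counts of reads per gene, and these counts were used as deposited. The submitters' processing notes name bcl2fastq 2.18.0.12, STAR 2.6.0, HTSeq 0.6.0, edgeR 3.28.1 and the build hg19, without giving each a role. The strand setting of the counting is not given in the sources used here. The p53 target genes and the lists of other targets, regulators and markers were chosen with earlier results of these data known.

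Genes were filtered with filterByExpr, which left 14215 of 23354, scaled by TMM and fitted with 1 term per group over all 16 libraries (8 residual degrees of freedom) by edgeR 4.0.16 (R 4.3.3, limma 3.58.1), with robust quasi-likelihood F-tests. Adjusted p-values are Benjamini-Hochberg over all 14215 genes, and the threshold was 0.05. CPM are TMM-scaled. Fold changes and standard errors come from the same fit. The 95% intervals were built from them with 8 degrees of freedom, fewer than the test uses, so they are wider than the test would give. Depth (median 19108821 counts in MM1S and 22656930.5 in MM1R) and a group size of 2 set the precision, and a test on counts covers the counting error. Per-library values are given for MDM2, CDKN1A, the up to 5 members with the smallest adjusted p in each direction whose groups did not overlap (TAK-981 in each line, Dex in MM1S), and up to 4 members for the line by TAK-981 and TAK-981 by Dex interactions and the vehicle comparison. From each of the other lists up to 3 genes per direction were taken in the same way. Members and genes named beyond this rule were named after their values were seen, and 1 gene that the rule covers is not reported here.

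Same-numbered libraries deviated together from their group means within each line. The correlations were 0.181 to 0.779 over the 5000 genes used, so the replicate number within each line was taken to pair the libraries. A fit with it as a block is given where it changed the call of a member. Where the block is not named, counts of calls, standard errors and p-values come from fits that leave this pairing out. The alternatives were DESeq2 1.42.0, RLE scaling, unscaled library sizes, all genes kept however low their counts, a fit of the compared groups only, a minimum log2 change of 1 in either direction, and fits that each lacked 1 library, where the lone library of a group is assumed to vary like the other groups. On data simulated for TAK-981 in MM1S over 14215 genes, 69 of 100 genes changed 1.5-fold and 86 of 100 changed 2-fold were recovered. No other genes were changed there, and 11 unchanged genes were called. In the data 49% of genes were called for this comparison, which alters the adjustment of p. The simulation therefore does not give the share of changed members that the real test finds. Promoters and start sites came from RefSeq (GRCh38.p14), and positions of genes from the deposited table.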

Additional observations from a re-analysis of the deposited data

Results flagged for a closer look

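The response to a drug differed between the lines, or in MM1S the effect of 1 drug differed with the other drug present, for the members below. Each value is a difference of log2 fold changes from an interaction term of edgeR's quasi-likelihood test with an adjusted p under 0.05. For TAK-981, MM1R minus MM1S, these were CDKN1A (0.39), TNFRSF10D (0.68) and PHLDA3 (−0.88). All 3 lost their calls in some fit without 1 library, as given above.

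For Dex, MM1R minus MM1S, 16 members differed. The values were CCNG1 (0.28), TP53INP1 (−0.44), GADD45B (−0.51), PLK2 (−1.02), PLK3 (−0.72), AEN (−0.77), PHLDA3 (−0.64), TP53I3 (−0.85), CYFIP2 (−0.30), SUSD6 (−0.45), XPC (−0.66), DDB2 (0.37), POLH (0.28), RRM2B (0.46), SESN1 (−0.88) and TIGAR (−0.40). The 12 negative values belong to members that rose with Dex in MM1S, and the 4 positive ones, CCNG1, DDB2, POLH and RRM2B, to members that fell there.

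In MM1S the combo departed for 8 members from what TAK-981 and Dex gave when added on the log2 scale. The departures were BTG2 (−0.63), GADD45B (−0.39), PLK2 (−1.07), TNFRSF10A (−0.34), PHLDA3 (−0.68), SUSD6 (−0.47), EI24 (−0.29) and DDB2 (0.57). For PLK2 the single-drug log2 changes of 1.66 and 0.82 add up to 2.48, and the combo gave 1.41.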

How the results depend on the processing

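Of the 204 member calls over the 15 comparisons, 202 passed with RLE scaling, 194 with library size only, 196 with no filter on low counts, 189 with the compared groups alone, 187 with DESeq2 and 204 with the replicate block, and 0 changed direction. Of the 291 member values not called, the block called 35, so that it ended no call but added these. The compared groups alone called 19 of them, no filter on low counts 9, library size only 7, RLE scaling 4 and DESeq2 0. The block moved a count by over 1.5 times in the line by TAK-981 interaction (7 against 3, where 14.5% against 4.16% of all genes were called). No scaling moved the median of all genes by over 0.1. A minimum log2 change of 1 in either direction left 2 members with TAK-981 in MM1S, 4 in MM1R and 0 with Dex in MM1S. Of all genes it left 9.93%, 9.63% and 7.6%. Against vehicle, the combo then had 4 in MM1S (17.7% of all genes) and 4 in MM1R (8.93%). Combo against Dex had 1 in MM1S (9.85%) and 4 in MM1R (8.41%). Combo against TAK-981 in MM1S had 0 (6.89%), and MM1R against MM1S in vehicle 4 (8.84%). The interactions had 0 (line by TAK-981, 0.563% of all genes), 1 (line by Dex, 6.46%) and 1 (TAK-981 by Dex in MM1S, 1.82%). For the last, library size only gave 5 (13.7% of all genes) and the compared groups alone 3 (5.65%), and the cause was not tested. For TAK-981 the compared groups alone gave 15 members in MM1S (38.8% of all genes) and 23 in MM1R (68.2%). Replicates differed unequally between groups. The chi-square of their counts per degree of freedom was 21.7 in MM1S TAK-981, 19.5 in MM1S Dex and 2.11 to 9.32 elsewhere. The main fit shares each gene's spread over all 8 groups. Leaving out 1 library gave 0 to 9 members for the line by TAK-981 interaction, 10 to 17 for the line by Dex interaction and 3 to 10 for the TAK-981 by Dex interaction in MM1S. For TAK-981 it gave 15 to 20 in MM1S and 12 to 14 in MM1R, for Dex in MM1S 16 to 19, and for the vehicle comparison 19 to 22. With 2 libraries per group, a member that was not called may still have changed. SPATA18 and ACER2 had at most 41 and 42 counts in any library, which limits their values to large shifts.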

Other observations

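CDKN2A, a gene on the list of p53 regulators 1 of whose products, ARF, is known to hold MDM2 away from p53, differed between the lines more than any other gene on these lists and was picked out after its values were seen. It had 6 counts over the 2 libraries of MM1S Veh and 1905 over the 2 of MM1R Veh, which is 0.141 and 0.154 CPM against 37.7 and 41.0 CPM per library. The other MM1S groups had 12 (TAK-981), 4 (Dex) and 5 (combo) counts, and the other MM1R groups 1432, 1822 and 1676. A fold is not given, since the MM1S libraries hold about as few counts as the limit set by a count of 0 (3 counts per library, for counting error only). The counts are per gene and do not tell ARF from other products of CDKN2A. Its annotated span overlaps CDKN2A-AS1 and MTAP on the opposite strand, and the strand setting of the counting is not given.

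TRIM22 had the largest TAK-981 response on the list of other p53 targets, and few counts in the MM1R Veh libraries. It was also at lower levels in vehicle-treated MM1R than in MM1S (log2 difference −1.74, SE 0.49, adjusted p 0.00683). That call was lost without MM1S Veh replicate 2 or MM1R Veh replicate 1 (adjusted p up to 0.075).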
